A study of Mus musculus with 2 samples.

Results

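The expression of 10 TGF-beta and Smad pathway genes was measured in EYFP+ cells sorted from the adult mouse dentate gyrus (DG). The genes, taken by name from the 32285 genes listed in the tables, were the ligand Tgfb1, the receptors Tgfbr1 and Tgfbr2, the transducers Smad2, Smad3 and Smad4, the inhibitors Smad7, Ski and Skil, and Nrros, whose product holds latent TGF-beta1 on myeloid cells. All 10 had UMIs (unique molecular identifiers, each standing for 1 captured transcript) in both libraries and all 10 passed the minimum level used below. There was 1 WT library, of genotype NestinCreERT2+/-; Vegfa wt/wt; ROSA-LoxSTOPLox-EYFP+/+, and 1 iKD library, of genotype NestinCreERT2+/-; Vegfa lox/lox; ROSA-LoxSTOPLox-EYFP+/+. Mice were 7 to 10 wk old at the start, both genotypes received TAM for 5 d, and DGs of 5 littermates per genotype were pooled for sorting 21 d after TAM. TAM activates a Cre driven by the Nestin promoter, which turns on EYFP in both genotypes and acts on the floxed Vegfa alleles in iKD mice. Both sexes were combined in each pool.

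TGF-beta1 is secreted in a latent form, often bound to an anchoring protein, and must be activated before it can act. Active ligand binds TGFBR2, which phosphorylates TGFBR1, and TGFBR1 in turn phosphorylates SMAD2 and SMAD3. These join SMAD4 and enter the nucleus, where SKI and SKIL repress the complex, while SMAD7 is induced by the signal and blocks the receptor. In the brain the pathway is best known for keeping microglia, the resident macrophages, in their homeostatic state, and it also acts on the quiescence of neural stem cells.

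The tables held 5543 WT cells and 5261 iKD cells in 12 clusters, with medians of 8051 and 7080 UMIs per cell. Cells of the 8 main clusters, named qNSC1, qNSC2, aNSC, NSPCs, IPC1, IPC2, eNB and NB, were checked against marker lists. All 10 microglia markers were found in more than 50% of these cells, with a median share over the list of 99.98% in WT and 99.97% in iKD. The neural stem cell list had median shares of 0.416% and 0.279%. Over qNSC1, qNSC2 and aNSC, the clusters named for stem cells, the medians were 99.9% for the microglia list and 0.455% for the stem cell list. The medians for border macrophages, intermediate progenitors, neuroblasts and granule neurons, astrocytes, endothelium and mural cells, and the oligodendrocyte lineage lay between 0 and 1.85%. Within the astrocyte list 1 of 5 markers exceeded 50%, with a share of 82.5% in WT and 77.9% in iKD. No single marker of the other lists in this group passed 19.6%, reached in the oligodendrocyte list in WT. The data therefore went against the stem cell and progenitor names, and clusters are called by their deposited names only as labels. Over the 8 clusters the choroid plexus list summed to a level of 0.153 counts per 10,000 UMIs in WT and 10.7 in iKD. Over the 6 NSC and IPC clusters, those named qNSC1, qNSC2, aNSC, NSPCs, IPC1 and IPC2, the glucocorticoid response list summed to 21.0 in WT and 15.4 in iKD. The targeted gene Vegfa had 74 UMIs in 3752 WT cells and 36 in 3412 iKD cells of these 6 clusters, and the tables do not show from which exon they came. The part of these differences in the results below was not tested.

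Throughout, the level of a gene is the counts per 10,000 UMIs of a cell, averaged over cells, and a ratio is the log2 of iKD divided by WT levels after a pseudocount of 0.01 was added to each. Levels are not scaled for transcript length and are compared only within a gene. Because each genotype had a single library, replicate error could not be estimated, no difference was tested and no p-value was computed. Parentheses hold exact 95% counting intervals, which are Poisson for UMI sums and binomial for shares, and for a ratio are the binomial interval of both UMI sums placed around it. They cover counting error only, not differences between cells, mice or libraries.

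Over the 6 NSC and IPC clusters, the list as a whole did not stand apart between genotypes. Of the 10 genes 4 were lower in iKD, and so were 44.7% of the 8836 genes whose level reached 0.1 in the higher genotype. The median ratio was 0.012 over the 10 genes and 0.012 over all of these genes, whose quartiles were -0.052 and 0.074. None of the 10 was past a log2 ratio of 0.25 either way, a size that 2.4% of all genes passed downward and 2.16% upward. The interval lay below 0 for 1 gene, the receptor Tgfbr1, against 11.1% of all genes. It lay above 0 for 2 genes, the receptor Tgfbr2 and Nrros, against 14.2% of all genes. The intervals hold counting error alone and narrow as the level of a gene rises. Of the 1996 genes with a level of 1 or more, 22.1% had intervals below 0 and 26.2% above.

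On the ligand side, Tgfb1, which encodes TGF-beta1 and lies at chr7:25687002-25705077, had a level of 3.03 in WT and 2.94 in iKD, from 9112 and 7101 UMIs. Its ratio of -0.044 (-0.09 to 0.00046) did not exceed counting error. Nrros (negative regulator of reactive oxygen species), which anchors latent TGF-beta1 on microglia and other myeloid cells, had a level of 2.20 in WT and 2.39 in iKD, from 6616 and 5742 UMIs. Its ratio was 0.12 (0.07 to 0.17), above 0 beyond counting error in the pooled cells.

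The type I receptor Tgfbr1 was counted in 69594 UMIs in WT and 50975 in iKD. Its level was 22.7 in WT and 20.4 in iKD, a ratio of -0.15 (-0.17 to -0.14), which placed it at percentile 6.98 of the ratios of all genes. The type II receptor Tgfbr2 had a level of 4.27 in WT and 4.67 in iKD, a ratio of 0.13 (0.09 to 0.17) and percentile 88.2. The pair of genes whose products form the receptor thus lay on opposite sides of 0 in the pooled cells.

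The transducers showed little difference, and 2 of them, Smad2 and Smad4, lie on chromosome 18 as does the inhibitor Smad7. Smad2 had a level of 0.980 in WT and 0.972 in iKD, a ratio of -0.011 (-0.09 to 0.07). Smad3, the other receptor-activated Smad, at chr9:63646767-63757994, had a level of 0.917 in WT and 0.958 in iKD, a ratio of 0.062 (-0.02 to 0.14). Smad4, the shared partner, had a level of 0.777 in WT and 0.782 in iKD, a ratio of 0.0084 (-0.08 to 0.10). The intervals of these 3 genes bound a difference in their pooled level to less than 0.15 on the log2 scale in either direction, as far as counting error goes.

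Among the inhibitors, Smad7, which is itself a target of the pathway, had a level of 3.64 in WT and 3.69 in iKD, a ratio of 0.022 (-0.02 to 0.06). Ski, at chr4:155154075-155222592, had a level of 2.78 in WT and 2.77 in iKD, a ratio of -0.0062 (-0.05 to 0.04). Skil, at chr3:31095058-31122577, had a level of 3.22 in WT and 3.26 in iKD, a ratio of 0.016 (-0.03 to 0.06). All 3 intervals included 0, and none reached beyond 0.07.

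The genomic sequence just before the transcription start is shown for the 3 genes whose pooled interval excluded 0, so that the regions can be read beside their ratios. Windows of 250 bases were taken from a set of RefSeq promoter windows on GRCm38.p6, and this set held an entry for 6 of the 10 genes. They are given 5′ to 3′ on the strand of the gene, with capitals for the PU box GAGGAA, the core bound by the myeloid factor PU.1, and for the Smad core CAGAC, each searched on both strands. The motifs share no letters in the windows shown. Of 32851 windows of the same length, 23.3% held a PU box and 42.2% a Smad core. Tgfbr1 lies at chr4:47353222-47414931 on the plus strand, and the window before its first start, chr4:47352972-47353221, held neither. Tgfbr2 lies at chr9:116084293-116175360 on the minus strand, and its window, chr9:116175364-116175613, held 1 of each. Nrros lies at chr16:32142785-32165594 on the minus strand, and its window, chr16:32165595-32165844, held 1 Smad core and no PU box.
Tgfbr1: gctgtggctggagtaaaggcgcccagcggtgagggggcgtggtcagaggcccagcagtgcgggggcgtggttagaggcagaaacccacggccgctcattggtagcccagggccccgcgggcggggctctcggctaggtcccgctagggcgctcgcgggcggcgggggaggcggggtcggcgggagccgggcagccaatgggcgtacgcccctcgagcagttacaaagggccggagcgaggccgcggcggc
Tgfbr2: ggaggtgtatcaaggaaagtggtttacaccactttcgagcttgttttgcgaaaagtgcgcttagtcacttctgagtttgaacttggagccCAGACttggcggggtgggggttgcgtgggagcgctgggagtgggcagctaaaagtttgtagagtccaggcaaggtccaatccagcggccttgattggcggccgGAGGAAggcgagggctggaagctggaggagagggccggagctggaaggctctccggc
Nrros: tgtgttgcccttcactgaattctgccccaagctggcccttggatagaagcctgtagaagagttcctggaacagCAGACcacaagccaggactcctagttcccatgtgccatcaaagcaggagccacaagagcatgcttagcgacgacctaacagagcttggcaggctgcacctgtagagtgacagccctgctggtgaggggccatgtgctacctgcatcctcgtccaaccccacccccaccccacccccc
The matches describe the letters only. A second start of Tgfbr1, 32994 bases into the gene, had a window with 1 PU box and 1 Smad core, while the windows of Tgfb1, Smad3 and Ski held neither. Gene positions are those of GENCODE on GRCm38.

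Levels across the 8 main clusters were next compared, with both genotypes pooled. The clusters were made from these same genes among others, so the values are a description. Most of the list varied little. The highest level was at least 2-fold above the lowest for 1 of the 10 genes, Smad7, where 16.8% of all 9486 genes compared had such a range, and the median range was 1.34-fold over the list and 1.51-fold over all genes.

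Smad7 was highest in qNSC1 at a level of 4.35, followed by eNB at 4.09, IPC1 at 3.86, IPC2 at 3.85, aNSC at 3.76, qNSC2 at 3.36 and NSPCs at 3.27, and it was lowest in NB at 1.95. NB stood apart from the rest in both genotypes, with levels of 1.94 in WT and 1.96 in iKD, while the intervals of 5 of the 7 neighbouring pairs in the order overlapped. Skil was also lowest in NB, at a level of 2.40, and highest in qNSC2 at 3.70. Ski, its paralogue, had its lowest level of 2.42 in qNSC1 and its highest in eNB, and all 7 neighbours in its order overlapped.

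Tgfbr1 had the most clearly ordered levels, since 1 of its 7 neighbouring pairs overlapped, qNSC2 with aNSC. It was highest in NB at a level of 27.6, followed by eNB at 25.2, IPC2 at 24.4, IPC1 at 23.2, qNSC2 at 22.1, aNSC at 21.7, qNSC1 at 19.8 and NSPCs at 17.5. NB, lowest for the inhibitors Smad7 and Skil, was therefore highest for this receptor in both libraries. The opposition did not extend to eNB, which was second highest for both Tgfbr1 and Smad7. NB also had the lowest median depth of the 8 clusters, 6652 UMIs per cell, whose part was not tested. Tgfbr2 was flat by comparison, from 4.14 in NSPCs to 4.94 in qNSC2, with all 7 neighbours overlapping.

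Tgfb1 ranged from a level of 2.49 in aNSC to 3.34 in NB, and 6 of 7 neighbours overlapped, the exception being NSPCs with IPC1. Nrros ranged from 1.99 in qNSC2 to 2.58 in qNSC1, with 6 of 7 overlapping. Smad2 ranged from 0.842 in NSPCs to 1.06 in NB, Smad3 from 0.791 in NSPCs to 1.09 in eNB and Smad4 from 0.650 in aNSC to 0.869 in NB, and their neighbours overlapped in 7, 6 and 7 pairs. NSPCs had the lowest level of Tgfbr1, Tgfbr2, Smad2 and Smad3, and also the second lowest median depth of the 8 clusters, 6925 UMIs per cell, whose part was not tested. The highest cluster in the pooled cells was also the highest in the WT cells alone for 6 of the 10 genes and in the iKD cells alone for 7.

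**Figure D1:**
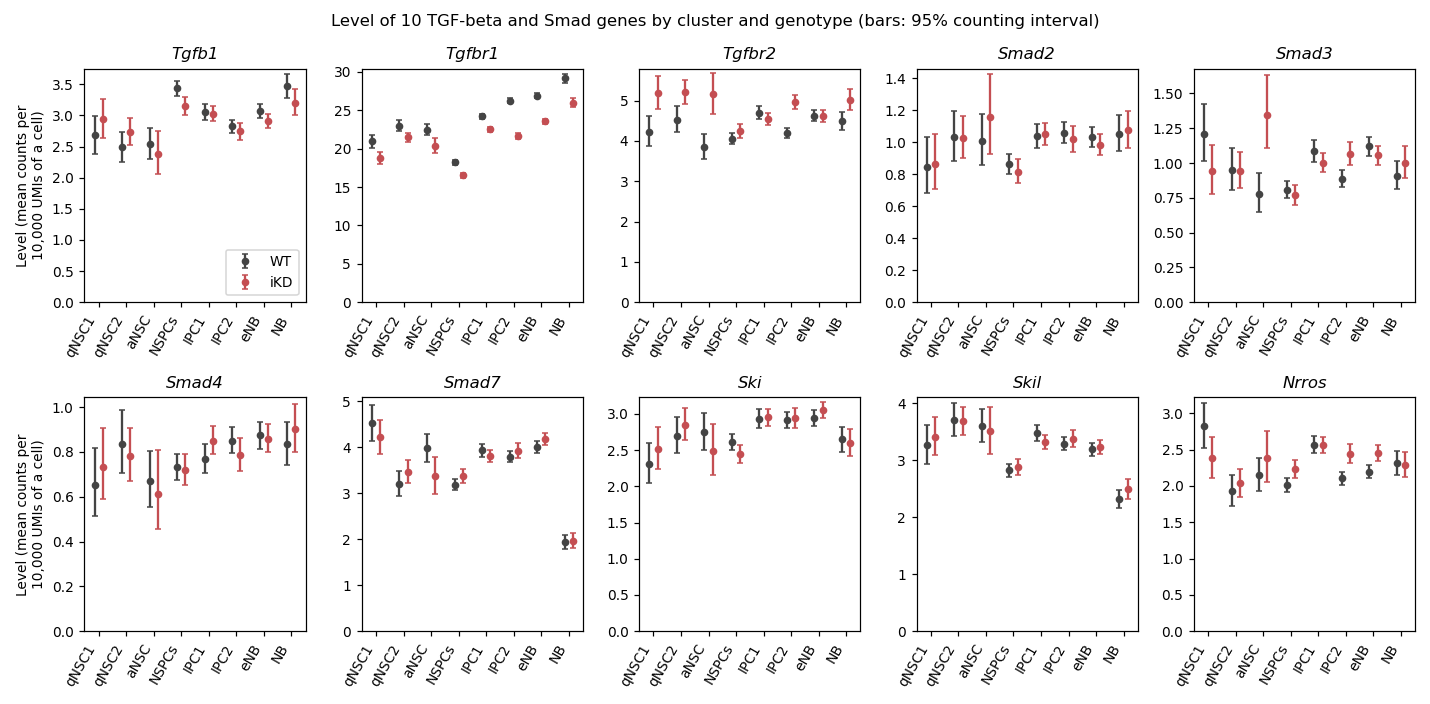
Level of each gene (mean counts per 10,000 UMIs of a cell, linear axes from 0) in the 8 main clusters, for WT (grey) and iKD (red); points are means over cells and bars 95% counting intervals of the summed UMIs. Smad7 drops to 1.94 and 1.96 in NB, and the red points of Tgfbr1 lie below the grey ones in all 8 clusters.

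The share of cells in which a gene was found was compared after each cell was thinned to 4500 UMIs, which left out 620 of the 10804 cells. In the 6 clusters, Tgfbr1 was found in 99.8% of cells in WT (99.5 to 99.9) and in 99.9% in iKD (99.7 to 99.97). A UMI in a cell is not by itself expression by that cell, since Ttr, a choroid plexus gene, was found in 98.7% of the same thinned iKD cells and in 5.67% of those of WT. Tgfbr2 was found in 81.2% of cells in WT (79.9 to 82.4) and in 84.3% in iKD (83.0 to 85.5). Nrros was found in 59.4% of cells in WT (57.8 to 61.0) and in 63.9% in iKD (62.2 to 65.6). For both genes the genotypes' intervals did not overlap, as for their levels. For the other 7 genes they did, with shares from 28.0% and 28.4% for Smad4 to 73.3% and 70.9% for Tgfb1. Without thinning all 10 shares were smaller in iKD, the shallower library, for example 87.9% and 83.8% for Tgfb1. In the iKD cells of the cluster named Astrocytes, which carried choroid plexus markers at a median of 7902 UMIs, the thinned shares were 29.9% for Tgfbr1 and 12.1 to 21.5% for the other 9 genes. Smad4 came nearest to its share in that cluster, with an interval of 8.80 to 23.1% there against 28.4% (26.8 to 29.9) in the iKD cells of the 6 clusters.

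Pairs of genes of the list were next looked for in the same cells. Over the 5184 WT cells and 4769 iKD cells of the 8 clusters left after thinning, Tgfb1 and its anchor Nrros were found together in 43.4% of WT cells (42.0 to 44.8), where the product of their shares was 43.6%, and in 45.2% of iKD cells, where it was 45.4%. Tgfb1 and Tgfbr2 were found together in 59.8% of WT cells, where the product was 59.9%. Smad3 and Smad4 were found together in 9.57% of WT cells, where the product was 9.48%. The median cell held 6 of the 10 genes in both genotypes, the poorest 2 and the richest 10. The 8 pairs examined without Tgfbr1 all had a product within the interval of the joint share in both genotypes. Pairs with Tgfbr1 carry no information of this kind, as it was found in over 99% of cells.

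The ratios within single clusters were next examined for the same 10 genes. Of the 80 combinations of gene and cluster 42 were lower in iKD, with 11 intervals below 0 and 11 above. Over all genes, 47.9% of the 71637 combinations at the minimum level were lower, 6.25% had an interval below 0 and 6.94% above. Combinations at higher levels have narrower intervals, and no share for those of like level was computed. Tgfbr1 accounted for 8 of the 11 below 0, 1 in each cluster. Its level was 21.0 in WT and 18.8 in iKD in qNSC1, 23.0 and 21.5 in qNSC2, 22.4 and 20.4 in aNSC, and 18.2 and 16.5 in NSPCs. It was 24.2 and 22.5 in IPC1, 26.2 and 21.7 in IPC2, 26.9 and 23.6 in eNB, and 29.2 and 26.0 in NB. The ratios ran from -0.27 in IPC2 to -0.10 in qNSC2, and the WT level was the higher in all 8 clusters.

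Tgfbr2 was above 0 beyond counting error in 5 clusters. In aNSC its level was 3.85 in WT and 5.16 in iKD, the largest ratio of the gene at 0.42 (0.24 to 0.60). In qNSC1 it was 4.23 and 5.18, in IPC2 4.19 and 4.96, in qNSC2 4.53 and 5.21 and in NB 4.49 and 5.02. In IPC1 and eNB the WT level was slightly the higher, with intervals that included 0.

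Smad3 had its largest ratio in aNSC, where its level was 0.780 in WT and 1.35 in iKD, 0.78 (0.40 to 1.16) from 130 and 107 UMIs. In IPC2 its level was 0.888 and 1.07, a ratio of 0.26 (0.11 to 0.41). In qNSC1 it was 1.21 and 0.942, a ratio of -0.35 (-0.73 to 0.02). It was thus higher in iKD beyond counting error in 2 clusters and lower in 5, where the intervals included 0.

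Nrros was above 0 in NSPCs, IPC2 and eNB, with ratios of 0.15, 0.22 and 0.16, and below 0 in qNSC1, where its level was 2.82 in WT and 2.38 in iKD. Smad7 was above 0 in NSPCs, where its level was 3.19 in WT and 3.38 in iKD, and below 0 in aNSC, where it was 3.97 and 3.37. Tgfb1 was below 0 in NSPCs, where its level was 3.43 in WT and 3.14 in iKD. Smad2, Smad4, Ski and Skil had no interval that excluded 0 in any of the 8 clusters.

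The clusters differed in the sex of their cells between the libraries. A cell was scored as female when it held an Xist UMI and none of Ddx3y, Eif2s3y, Uty or Kdm5d, and as male in the reverse case. In the 6 clusters 51.1% of scored WT cells and 70.8% of scored iKD cells were female. In aNSC the female share was 21.5% in WT and 94.1% in iKD, and in IPC2 it was 0.836% in WT and 15.8% in iKD. IPC2 held 1067 of the 1686 male WT cells and 616 of the 918 male iKD cells. The large aNSC values of Smad3 and Tgfbr2 therefore came from a cluster in which sex and genotype could hardly be told apart.

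The ratios were computed in female and in male cells alone. Tgfbr1 had a level of 21.0 in female WT cells, 20.5 in female iKD cells, 24.5 in male WT cells and 20.2 in male iKD cells. The male WT cells thus stood above the other three groups, and the ratio was -0.032 (-0.05 to -0.0097) in female and -0.28 (-0.31 to -0.25) in male cells. In female cells the level of Tgfbr2 was 4.36 in WT and 4.56 in iKD, and in male cells 4.14 and 5.01, with ratios of 0.065 (0.02 to 0.11) and 0.28 (0.22 to 0.34). Both receptors kept their direction in each sex, with intervals of the female and male ratio that did not overlap.

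In female cells the level of Nrros was 2.28 in WT and 2.33 in iKD, a ratio of 0.026 (-0.04 to 0.10), so its pooled difference was within counting error there. In male cells the levels were 2.12 and 2.43, a ratio of 0.19 (0.11 to 0.28). Smad3 had levels of 0.970 and 0.936 in female cells, a ratio of -0.051 (-0.16 to 0.06), and of 0.873 and 1.02 in male cells, a ratio of 0.23 (0.09 to 0.36). Of the 10 genes it was the 1 with opposite signs and intervals that did not overlap, which 7.8% of all genes had. Tgfb1 had a ratio of -0.10 (-0.16 to -0.05) in female cells, with levels of 3.25 and 3.02, and of -0.030 (-0.11 to 0.05) in male cells, with levels of 2.85 and 2.79. Smad2, Smad4, Smad7, Ski and Skil had intervals that included 0 in both sexes.

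**Figure D2:**
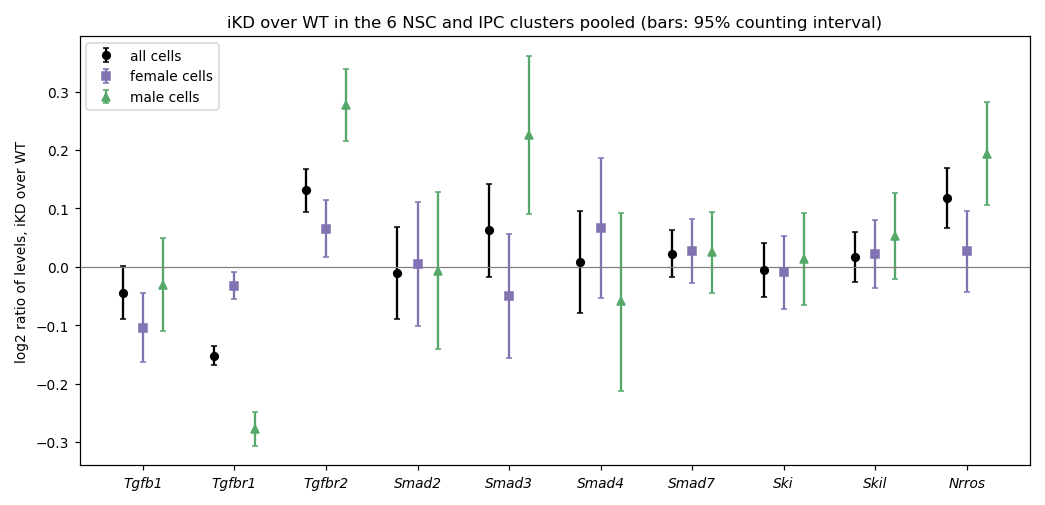
Log2 ratio of levels, iKD over WT, of each gene in the 6 NSC and IPC clusters pooled, over all cells (black circles), female cells (purple squares) and male cells (green triangles), with 95% counting intervals. Tgfbr1 lies below 0 and Tgfbr2 above 0 in all 3, while Smad3 is at -0.051 in female and 0.23 in male cells.

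Female and male cells of the same library were also set side by side. Tgfb1 was higher in female cells in both libraries, with a female over male log2 ratio of 0.19 (0.12 to 0.25) in WT and 0.11 (0.03 to 0.19) in iKD. Smad7 was lower in female cells in both, with ratios of -0.071 (-0.13 to -0.01) and -0.069 (-0.14 to -0.0012). Tgfbr2 was higher in female cells of WT, 0.075 (0.02 to 0.13), and lower in female cells of iKD, -0.14 (-0.20 to -0.08). Since male cells came mostly from IPC2 and female cells from other clusters, sex and cluster were entangled in these values.

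To hold both constant, a split chosen after seeing the data was made into the 10 combinations of 1 cluster and 1 sex with at least 50 cells of each genotype, 6 female and 4 male. Tgfbr1 was lower in iKD in all 10, with 9 intervals below 0, and the ratios ran from -0.47 to -0.030. Of the 7990 genes at the minimum level in every combination, 0.851% were lower in iKD in all 10, and 1.06% were higher in all 10. These shares cover genes down to a level of 0.1, whereas Tgfbr1 ranked 25 among all genes by level over the 6 clusters. No share for genes of like level was computed. The mean ratio of Tgfbr1 was -0.11 over the female and -0.32 over the male combinations. In male IPC1 cells its level was 26.9 in WT and 19.5 in iKD, and in male NB cells it was 30.4 and 23.9. The smallest difference was in female qNSC2 cells, with levels of 21.7 and 21.3 and an interval that included 0.

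Tgfbr2 was higher in iKD in 8 of the 10 combinations, 3 of them beyond counting error, with ratios from -0.032 in female IPC1 cells to 0.28 in male IPC2 cells. Nrros was higher in all 4 male combinations, with ratios from 0.11 to 0.27 of which 1 exceeded counting error, and lower in 3 of the 6 female ones, with all 3 intervals including 0. Of the other 3 female combinations, eNB was above 0 beyond counting error, at 0.17 (0.08 to 0.27). Smad3 was lower in 5 of 6 female combinations, in 1 beyond counting error, and higher in 3 of 4 male ones, in 1 beyond counting error. Its mean over all 10 was -0.040, of opposite sign to the pooled ratio. The WT and iKD cells of every combination still came from 1 library each.

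**Figure D3:**
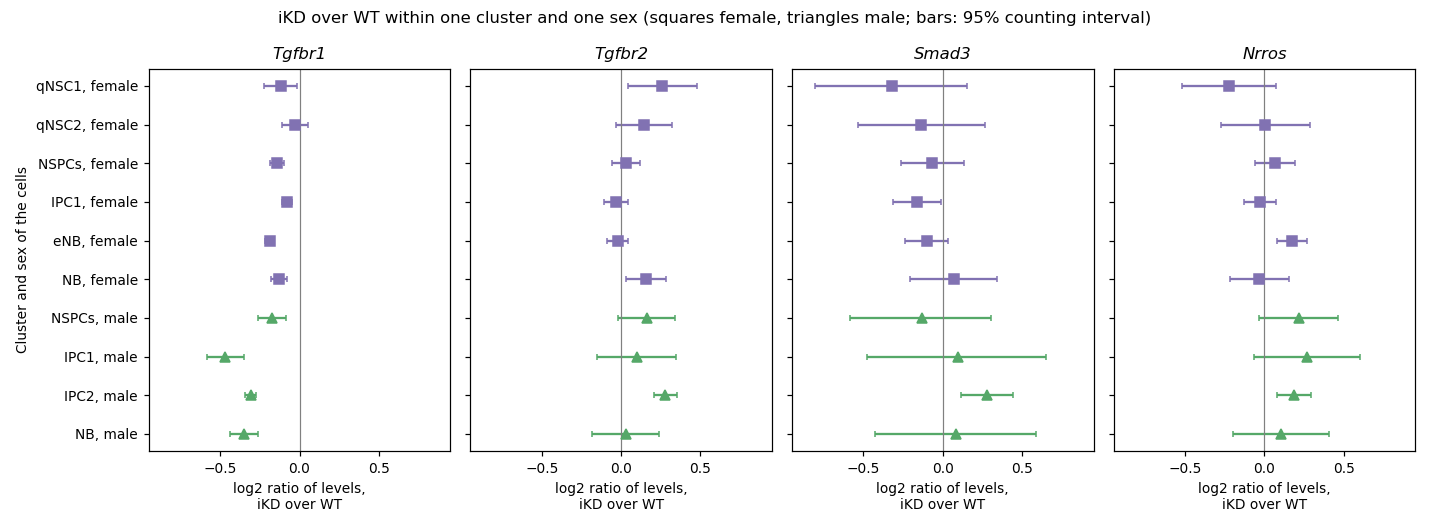
Log2 ratio of levels, iKD over WT, of Tgfbr1, Tgfbr2, Smad3 and Nrros in the 10 combinations of cluster and sex with at least 50 cells of each genotype (squares female, triangles male, bars 95% counting intervals). All 10 points of Tgfbr1 lie below 0, from -0.47 to -0.030, whereas Smad3 spreads to both sides.

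The smaller clusters were examined last. The cluster named Astrocytes held all 8 choroid plexus markers in more than 50% of its cells and a median share of 42.9% for the microglia list. Its 130 iKD cells, against 4 in WT, gave the members low levels, for example 3.59 for Tgfbr1 against 21.6 in the iKD cells of the 8 main clusters. As a percentage of that level, Tgfbr1 stood at 16.6% (14.8 to 18.5), Tgfb1 at 17.5% (12.7 to 23.4), Nrros at 17.5% (12.3 to 24.2) and Tgfbr2 at 20.1% (16.2 to 24.6). The 10 microglia markers together stood at 21.3% (20.9 to 21.8), with single markers from 14.7 to 24.3%, so these 4 genes lay within the range of the markers. Ski at 23.4% also lay within it and Skil at 24.8% just above it. Smad4 at 48.4% (34.4 to 66.2), Smad2 at 37.7% (26.6 to 52.0) and Smad7 at 30.7% lay above that range with their whole interval, and Smad3 at 30.1% (20.3 to 42.9) with part of it. These sums rest on 30 to 39 UMIs for the 3 transducers.

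**Figure D4:**
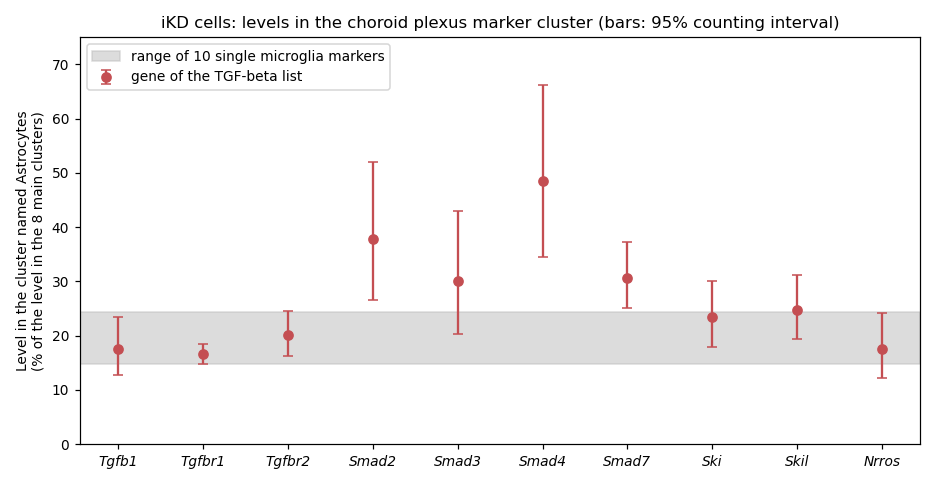
Level of each gene in the 130 iKD cells of the cluster named Astrocytes, which carries choroid plexus markers, as a percentage of its level in the iKD cells of the 8 main clusters (bars 95% counting intervals), with the range of the 10 single microglia markers as a grey band from 14.7 to 24.3%. Ligand, anchor and receptors lie within the band, and Smad2, Smad4 and Smad7 lie above it.

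IN2, a cluster of 288 cells with a median of 3102.5 UMIs, had the highest level of the 12 clusters for 7 of the 10 genes. With both genotypes pooled these levels were 32.8 for Tgfbr1, 6.01 for Tgfbr2, 5.65 for Ski, 4.65 for Smad7, 2.93 for Nrros, 2.36 for Smad3 and 1.41 for Smad4. Tgfb1 had a level of 1.82 there, below all 8 main clusters. For Smad7 the rank depended on the measure. As CPM of summed UMIs it was 409 in IN2, below 435 in qNSC1, 412 in IN1 and 411 in eNB. The other genes listed stayed highest in IN2 by CPM. The microglia list summed to a level of 141 in IN2, against 406 in WT and 397 in iKD cells of the 8 main clusters. Its median share in IN2 was 86.1%. IN2 was the shallowest of the larger clusters, and the part of depth and of cell type in these levels was not tested. IN1 and the cluster named Undefined held 50 and 40 cells, and the 10 genes had from 3 to 83 UMIs each in the latter.

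The other genes of the pathway were taken from 7 lists of 74 genes in all. In the 6 clusters 71 of these had a UMI, and 44 reached the minimum level of 0.1. Of the 44, 18 were lower and 26 higher in iKD, with 9 intervals below 0 and 7 above, and 1 was past -0.25 and none past 0.25. Over all 8836 genes 44.7% were lower, 11.1% had intervals below 0 and 14.2% above, and 2.4% and 2.16% were past 0.25 downward and upward. The median ratio of the 44 was 0.0072.

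Of 7 further ligands none reached the minimum level, the most abundant being Tgfb2 at a level of 0.0065 and Gdf11 at 0.0045. Of these 7 and Tgfb1, only Tgfb1 was above it. Of 10 latency and activation genes 2 reached it, 1 lower and 1 higher. These were Itgav, an integrin subunit that can take part in releasing the ligand, at a level of 2.29 in WT and 2.36 in iKD, and Furin, which cleaves the precursor, at 0.346 and 0.318. Both intervals included 0.

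Of 7 further receptors 5 reached it, 2 lower and 3 higher. Eng, the co-receptor endoglin, had a level of 0.745 in WT and 0.681 in iKD, a ratio of -0.13 (-0.22 to -0.04). By sex, its ratio was -0.21 in female and 0.00090 in male cells. Acvr2a, an activin receptor, had a level of 0.557 and 0.608, a ratio of 0.12 (0.02 to 0.22), with 0.13 in female and 0.24 in male cells. Of 12 genes of the BMP branch, which signals through other Smads, 5 reached it, and all 5 were higher in iKD, with a median ratio of 0.015. Relative to the median ratio of all genes, 0.012, Smad5, named after its value was seen, at 0.00065 was on the lower side. The interval excluded 0 for 1 of them, the receptor Acvr1, at 0.888 in WT and 0.964 in iKD, whereas Bmpr2 had 1.87 and 1.89. Acvr1 had a ratio of 0.041 in female and 0.29 in male cells.

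Of 18 cofactors and regulators 16 reached it, 7 lower and 9 higher, with a median ratio of 0.0091. Pmepa1, a target that restrains the signal, had a level of 10.1 in WT and 10.6 in iKD, a ratio of 0.066 (0.04 to 0.09). The coactivator Crebbp had 2.23 and 2.22. Named after their values were seen, Traf6, a ubiquitin ligase that links the receptor to kinase signalling, had an interval above 0 (0.539 in WT and 0.599 in iKD), and the coactivator Ep300 had one below 0 (1.78 and 1.66).

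Of 8 general targets 4 reached it, and 2 of these were lower in iKD with intervals below 0. Id2, an inhibitor of helix-loop-helix factors, had a level of 1.20 in WT and 0.893 in iKD, a ratio of -0.43 (-0.50 to -0.35), the one gene of the 44 past -0.25. It was lower in both sexes, by ratios of -0.31 in female and -0.64 in male cells. Cdkn1a, which encodes a cell cycle inhibitor, had 0.295 and 0.261, a ratio of -0.17 (-0.32 to -0.02), but its ratio was -0.34 in female and 0.19 in male cells. Id2 and Cdkn1a respond to many signals besides TGF-beta.

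The 12 genes known to depend on TGF-beta in microglia all reached it, with 6 lower and 6 higher, 5 intervals below 0 and 3 above, and a median ratio of -0.012. Of all genes 11.1% had intervals below 0 and 14.2% above, but of the 1996 genes with a level of 1 or more, as in this list, 22.1% and 26.2% did. P2ry12, the purinergic receptor of homeostatic microglia, had a level of 29.9 in WT and 30.0 in iKD, a ratio of 0.0011 (-0.01 to 0.02). Gpr34, another homeostatic receptor, had 18.9 and 18.6, a ratio of -0.025 (-0.04 to -0.0068). Named after their values were seen, Tmem119, Olfml3, Fcrls and Mertk also had intervals below 0, and Sall1, Siglech and Pros1 had intervals above 0. For the 3 above 0, the ratios in female and male cells were 0.0087 and 0.18 for Sall1, 0.035 and 0.023 for Siglech, and 0.11 and 0.19 for Pros1. The lowest ratio was that of Fcrls, at levels of 19.7 and 17.3, -0.18 (-0.20 to -0.17), with -0.29 in female and -0.051 in male cells. The highest was that of Pros1, at 2.87 and 3.16, 0.14 (0.09 to 0.18). No gene of this list was past 0.25 in either direction.

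The genes most like each member were taken from the Pearson correlation of log2 levels over 16 points, the 8 main clusters in each of 2 libraries, among 3849 genes whose mean level reached 0.5. The points share libraries, cells and clustering, so the values are a description. Each closest gene has the highest of 3849 correlations over only 16 points, a choice that by itself raises r. The r expected from this choice alone was not computed. The closest gene to Tgfb1 was Slc35b2 (r = 0.90), to Nrros Snx24 (r = 0.88), to Tgfbr1 Nsd1 (r = 0.94) and to Tgfbr2 Cbfb (r = 0.81). The closest to Smad2 was Lnpep (r = 0.92), to Smad3 Mrtfa (r = 0.85) and to Smad4 Suco (r = 0.93). For Smad7 it was Atf3 (r = 0.95), for Skil Ccnl1 (r = 0.96) and for Ski Chd2 (r = 0.94). The second closest genes were, in the same order, Klhl9, Sirpa, Pnpla7, Sncaip, Ext1, Tsc22d2, Rmnd5a, Zfand5, Etf1 and Pde3b, with r from 0.79 to 0.94. Within the list, Smad7 and Skil were most alike (r = 0.78), Tgfbr1 followed Smad2 (r = 0.69) and Smad4 (r = 0.63), and Tgfb1 ran opposite to Skil (r = -0.80). Tgfbr1 and Tgfbr2, the receptor pair, had r = 0.05.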

How the data were processed

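Single-cell RNA sequencing of EYFP+ cells from 1 WT and 1 iKD library was analysed from tables that the authors deposited, 1 per cluster, as natural log values, each the log of 1 added to the counts per 10,000 UMIs in a cell. The submitters' processing notes name Cell Ranger 7.0.1 and Seurat 4.1.1, and give the build as GRCh38 although the gene symbols are those of mouse, so the authors' build is uncertain and the coordinates printed are from GENCODE M21 and RefSeq on GRCm38. The notes also name CASAVA 1.8.2, HISAT2 2.0.6, Subread and featureCounts, with no role stated. The methods state a filter with a minimum of 2000 features per cell, whereas the deposited cells held 1004 to 3999 genes, and all deposited cells were kept.

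UMI counts were recovered from the natural log values as whole multiples of each cell's smallest value, and 100% of 32261786 values came out whole within 0.01. The libraries held 44142118 and 37451839 UMIs, and 9 cell barcodes were shared between them. No doublet caller was run, and 152 cells held UMIs of female- and male-specific genes together. Cluster names and genotypes were taken from the labels, and 0 columns were left unused.

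The 10 genes, the 7 pathway lists and the 10 marker lists were chosen with earlier results of these data known. Besides the members, the genes named were the 2 highest of each pathway list, any past a log2 ratio of 0.25 at a level of at least 0.1, and the 2 closest genes to each member, and others are said in the text to have been named after their values were seen. The result of 1 gene of the pathway lists is not reported here, and it was left out of the counts. Levels were means over cells and no test was made, since each genotype had 1 library. Alternatives were CPM of summed UMIs, pseudocounts of 1 and 0.001, 2 other scalings, the sexes apart, other sets of clusters or cells, and thinning to 4500 UMIs. The scripts were tested on simulated Poisson counts, drawn from a common profile with some genes changed between genotypes. Those counts held no differences between clusters, sexes or mice, so the test does not cover such spread. Python 3.11.15, numpy 2.4.6, scipy 1.17.1, pandas 2.3.3 and matplotlib 3.10.9 were used.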

Additional observations from a re-analysis of the deposited data

Results flagged for a closer look

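Of 22 genes compared between the sexes (the 10 members and the named pathway genes at the minimum level), 5 had iKD over WT log2 ratios of opposite sign in female and male cells with counting intervals that did not overlap, as had 7.8% of the 8836 genes at the minimum level. The difference was not tested, since each genotype had 1 library. The share of 7.8% covers genes down to a level of 0.1, and intervals narrow as the level of a gene rises. For genes of like level no such share was computed. For Smad3 the ratio was -0.051 (-0.16 to 0.06) in female and 0.23 (0.09 to 0.36) in male cells. For Cdkn1a it was -0.34 (-0.55 to -0.14) in female cells, with levels of 0.298 in WT and 0.233 in iKD, and 0.19 (-0.06 to 0.44) in male cells, with levels of 0.280 and 0.321. For Crebbp it was 0.085 (0.01 to 0.16) in female and -0.087 (-0.18 to 0.00067) in male cells. For P2ry12 it was -0.064 (-0.08 to -0.04) in female and 0.060 (0.04 to 0.08) in male cells, which left the pooled ratio near 0. For Gpr34 it was -0.10 (-0.12 to -0.07) in female and 0.031 (-0.00075 to 0.06) in male cells. Of all 44 other pathway genes at that level 8 did so, among them, named after their values were seen, Nedd4l (0.33 in female and -0.22 in male cells), Gas6 (-0.15 and 0.30), P2ry13 (-0.14 and 0.057) and Smurf2 (0.14 and -0.058). Male cells came mostly from IPC2, and the part of cluster in these values was not tested outside the 10 members.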

How the results depend on the processing

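No paired analysis was possible because each genotype had 1 library, and for the same reason no replicate could be left out. Under 14 alternatives, of which the split by cluster and sex was chosen after seeing the data, the number of members lower in iKD stayed between 3 and 6 and their median ratio between -0.0027 and 0.019. Tgfbr1 was below 0 under all 14 (-0.28 to -0.032), and Tgfbr2 (0.065 to 0.28) and Nrros (0.026 to 0.19) were above 0 under all 14. Of 140 alternative values of single members 17 lay outside the counting interval of the main value, most of them in female or male cells alone. Thinning moved the number of members found in a larger share of iKD than WT cells from 0 to 6. In WT cells alone 6 of 10 members kept their highest cluster. Without the filter on level 71 other pathway genes with a UMI were counted in place of 44, of which 45 were higher in iKD in place of 26 and 26 lower in place of 18. Thinning to equal depth moved the ratio of Tgfbr1 from -0.15 to -0.13, beyond its counting interval, and left those of the other 9 members within theirs.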
